A study of Homo sapiens with 4 samples.

Results

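The 10 genes described here encode surface, secreted and lineage markers of serous ovarian carcinoma: the surface proteins FOLR1, MUC16 and MSLN, the secreted protein WFDC2, the transcription factors PAX8, WT1, SOX17 and EMX2, and the steroid receptors ESR1 and PGR. They were taken as the rows of the value table whose platform annotation gives one of these symbols, which found 11 transcript clusters for 10 of 10 genes, of 18417 genes on single-symbol clusters and 21214 clusters with any symbol. A transcript cluster is the set of probes that the array reports as 1 value for a transcript. ESR1 had 2 clusters, and the one of higher mean stands for the gene unless stated.

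OVCAR-3, a cultured human line from an ovarian carcinoma, was profiled on 4 Affymetrix arrays of 1 colour. The tested cells are labelled as overexpressing the human linker histone H1.3 (2 arrays, whose titles add an H in brackets that is not explained in the sources used here), and the controls received vectors lacking H1.3 (2 arrays). All cells were thus transfected and grown in the same serum-supplemented medium. The labels do not say whether the transfected cells were clones or pools, nor what separates the replicates beyond calling them biological, so the p-values cover only the spread from array to array, which may be technical.

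Serous ovarian carcinoma is thought to arise largely from secretory cells of the fallopian tube, an epithelium of the Müllerian duct. PAX8, SOX17, EMX2 and WT1 are transcription factors of the developing urogenital tract that such tumours often keep. Several of the surface and secreted products, among them CA-125 (the shed part of MUC16), HE4 (WFDC2), mesothelin (MSLN) and folate receptor alpha (FOLR1), serve as serum markers or as targets of antibody drugs.

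Median log2 values lay between 6.21 and 6.27 per array over all clusters, and at 6.84 on each array over the named ones. H1-3, which encodes H1.3, measured 7.47 and 7.69 on the arrays labelled H1.3 and 8.65 and 7.88 on the vector-only arrays, a log2 difference of -0.69 (limma adjusted p 0.319.) That level runs against the label, so directions are given for the labels of the arrays, not for a measured H1-3 level. All 6 defining markers of simple epithelium that were measured (EPCAM, CDH1, KRT7, KRT8, KRT18 and KRT19) read between 10.19 and 13.13. No probe background was given, so the 360 clusters of single olfactory receptor genes, most of them silent outside the nose, served as a reference for dim signal. Their 95th percentile lay between 5.18 and 5.41 per array, and it is called the dim reference below.

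FOLR1 was the marker that differed most and the only one of the 10 that passed the test. Its transcript was lower in the arrays labelled H1.3, by 2.39-fold. MUC16, WT1, SOX17, PAX8 and EMX2 differed by at most 0.13 in either direction, and MSLN lay lower by 0.49 without passing. ESR1 and PGR did not rise above the dim reference on any array. In all, 1 of 10 markers fell and 0 rose at a limma adjusted p under 0.05. Over the 21214 clusters tested, 0.264% fell and 0.24% rose. At an unadjusted p under 0.05, 2 markers were lower and 0 higher, against 6.34% and 5.21% of all clusters. Of the 10, 5 differences were negative, 4 positive and 1 was 0, and 45.9% of all clusters were negative. The median difference of the markers was -0.01, beside 0.015 over all clusters, and their median absolute difference was 0.115, beside 0.12.

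**Figure D1:**
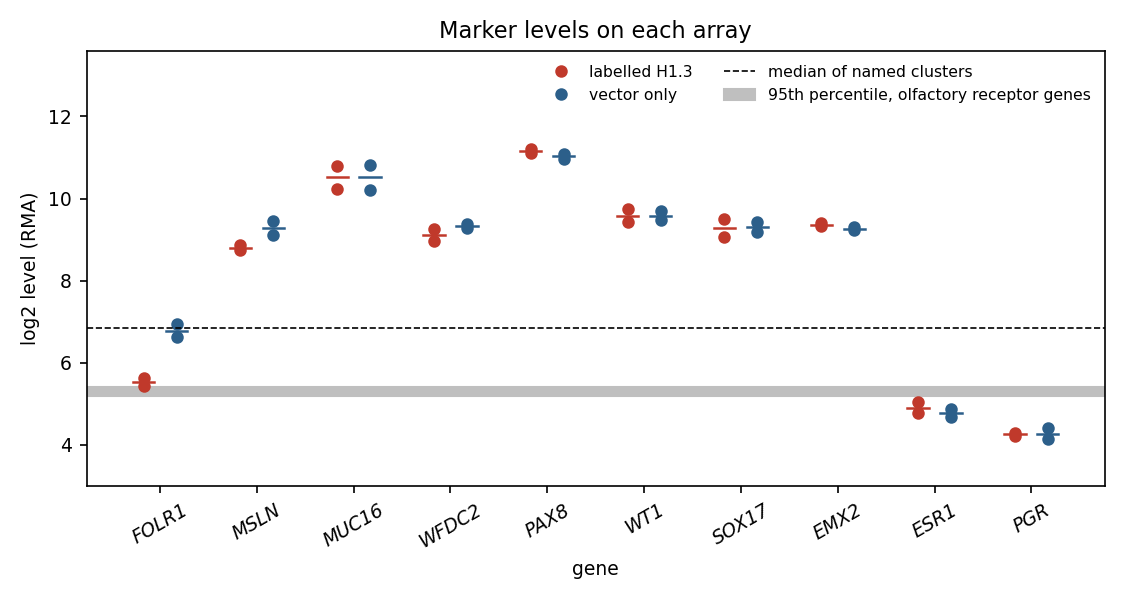
Deposited log2 level of each marker on each array (points) with the group mean (bar), labelled H1.3 at the left of each pair and vector only at the right. The dashed line is the median of the named clusters (6.84) and the grey band spans the 95th percentile of olfactory receptor genes over the arrays (5.18 to 5.41). FOLR1 lies near the line in the vector-only arrays and just above the band in the arrays labelled H1.3, ESR1 and PGR lie below the band, and the other 7 lie above the line.

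FOLR1 binds folates at the cell surface through a lipid anchor and carries them inward by endocytosis. It measured 5.62 and 5.43 on the arrays labelled H1.3, against 6.95 and 6.62 on the vector-only arrays. Both arrays labelled H1.3 were below both vector-only arrays, and the gap between the groups was larger than the spread within either. The group means were 5.53 ± 0.13 in arrays labelled H1.3 and 6.79 ± 0.23 in vector-only arrays (SD, n = 2 each), and the log2 difference was -1.26 ± 0.15 (SE) with a limma adjusted p of 0.0291 and a 95% interval of -1.61 to -0.91. In rank among the named clusters, FOLR1 stood at the 28.6th and 27.1th percentile on the arrays labelled H1.3 and at the 51.8th and 46.1th on the vector-only arrays. On the arrays labelled H1.3 it lay only 0.21 and 0.07 above the dim reference, so how much transcript remained there cannot be read from these values. On the vector-only arrays it lay 1.77 and 1.29 above that reference and above all olfactory receptor clusters. Of 16 leukocyte genes, 6 also exceeded the reference on every array and 10 on none, and NKG7 read 6.69 and 6.90 on the vector-only arrays. The vector-only level of FOLR1 is thus no firm measure of its transcript either. The call was lost whichever array was left out, with log2 differences from -1.43 to -1.09 and adjusted p from 0.433 to 0.802, but in these smaller fits 0 of the 21214 clusters passed, so the loss is not particular to FOLR1. In bulk RNA, fewer cells carrying a transcript and less of it per cell cannot be told apart.

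FOLR1 sits on chromosome 11 in a cluster of folate receptor genes, and its neighbours in genome order allow its change to be set beside theirs. All of the 10 nearest measured genes before it were lower in the arrays labelled H1.3 (median log2 difference -0.27), whereas 3 of the 10 after it were, with a median of 0.09. The fall of FOLR1 was larger than the difference of each of these 20 genes, which ran from -0.55 to 0.33, and 0 of them passed. Several of these genes were dim. Among genes with a mean level at or above the median, 6 of the 10 nearest before FOLR1 were lower (median -0.25). After it, 5 of the 10 nearest such genes were lower (median 0.0075), against 45.9% of all clusters. Before it, the nuclear mitotic apparatus gene NUMA1 differed by -0.32, LRTOMT by -0.49 and ANAPC15, a subunit of the anaphase-promoting complex, by -0.45, while IL18BP, the interleukin 18 binding protein gene, differed by -0.06. After it, the phosphatase gene INPPL1 differed by 0.09, PHOX2A, a neuronal homeobox gene, by 0.09, LOC220077 by 0.09 and CLPB, a mitochondrial chaperone gene, by 0.11. The part that the lower values on 1 side have in that of FOLR1 was not tested.

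FOLR1 has paralogues on either side of it. FOLR2, found on macrophages, read 5.03 and 4.84 on the arrays labelled H1.3 and 4.89 and 4.98 on the vector-only arrays, levels below the dim reference, and the means were equal. FOLR3, a secreted form, read 5.70 and 5.67 on the arrays labelled H1.3 and 5.74 and 5.93 on the vector-only arrays, a log2 difference of -0.15 (adjusted p 0.726.) The paralogues resemble each other in sequence, so some signal on their probes may be shared.

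**Figure D2:**
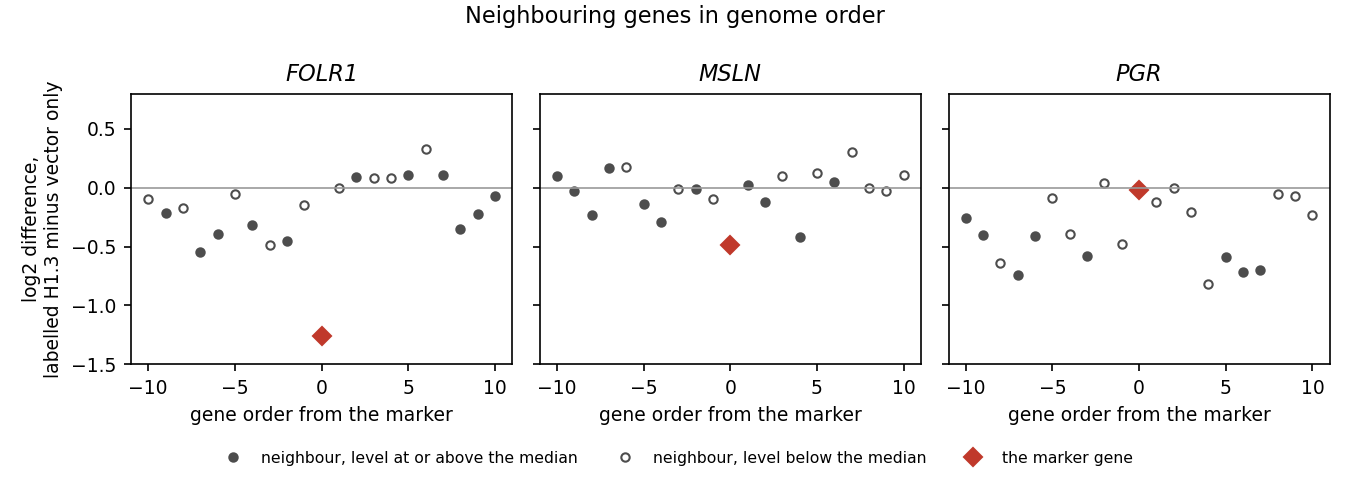
Log2 difference (labelled H1.3 minus vector only) of FOLR1, MSLN and PGR (red diamonds) and of the 10 nearest measured genes on each side in genome order, filled where the gene's mean level is at or above the median of the named clusters and open where it is below. FOLR1, at -1.26, and MSLN, at -0.49, lie below each of their neighbours, and PGR, at -0.02, lies above 18 of its 20.

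Genes whose profile over the 4 arrays was most like that of FOLR1 were sought among the 18416 other genes by the Euclidean distance between log2 values after subtraction of each gene's mean. The nearest were SEMA4A, a semaphorin gene, at a distance of 0.20, NOG, which encodes the bone morphogenetic protein antagonist noggin, at 0.21, and ME3, a mitochondrial malic enzyme gene, at 0.22. SEMA4A read 6.08 and 5.98 on the arrays labelled H1.3 and 7.22 and 7.04 on the vector-only arrays. NOG read 8.84 and 8.66 on the arrays labelled H1.3 and 9.92 and 9.79 on the vector-only arrays. ME3 read 6.38 and 6.11 on the arrays labelled H1.3 and 7.43 and 7.34 on the vector-only arrays. With 2 arrays a group, such a likeness mostly repeats the difference between the groups.

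MSLN, the lipid-anchored surface protein mesothelin that can bind MUC16, measured 8.74 and 8.86 on the arrays labelled H1.3, against 9.46 and 9.12 on the vector-only arrays. The groups did not overlap, but the vector-only arrays differed from each other by 0.34. The log2 difference was -0.49 ± 0.15 (SE), with a 95% interval of -0.84 to -0.14, an unadjusted limma p of 0.0122 and an adjusted p of 0.232. It ran from -0.66 to -0.32 when each array was left out in turn, the extremes being those without vector-only replicate 2 and replicate 1. MSLN, too, was below each of its 20 nearest measured neighbours, which had a median of only -0.005 and ran from -0.42 to 0.31.

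MUC16, the very large membrane mucin that sheds CA-125, measured 10.24 and 10.80 on the arrays labelled H1.3, against 10.21 and 10.82 on the vector-only arrays. The groups overlapped almost exactly, and the log2 difference was 0.005 ± 0.25 (SE). Its 95% interval, -0.57 to 0.58, was the widest of the 10. MUC16 nevertheless stood at the 94.8th percentile of the named clusters or above on every array.

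WFDC2, a small secreted protein with the cysteine-rich whey acidic protein fold, measured 9.27 and 8.97 on the arrays labelled H1.3, against 9.38 and 9.28 on the vector-only arrays. The arrays labelled H1.3 were both lower, by little, and the log2 difference of -0.21 ± 0.14 (SE) did not pass (limma adjusted p 0.648, 95% interval -0.54 to 0.12). Of the 16 measured genes in the list of WFDC2 and MSLN relatives by protein family, 1 rose and 0 fell, against 0.24% and 0.264% of all clusters, with a median of 0.05. The gene that rose was PI3, which encodes elafin, a whey acidic protein inhibitor of neutrophil elastase. PI3 read 8.33 and 7.95 on the arrays labelled H1.3 and 7.07 and 7.14 on the vector-only arrays, a log2 difference of 1.04 ± 0.15 (SE) (adjusted p 0.0477.) The call was lost in 7 refits besides those that left out an array, and held with a robust intensity trend. SLPI, a related antiprotease, differed by -0.11 (adjusted p 0.827) at levels of 11.75 and 11.78 on the arrays labelled H1.3 and 11.98 and 11.76 on the vector-only arrays. Of the list's genes, 7 lay under the dim reference on every array.

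**Figure D3:**
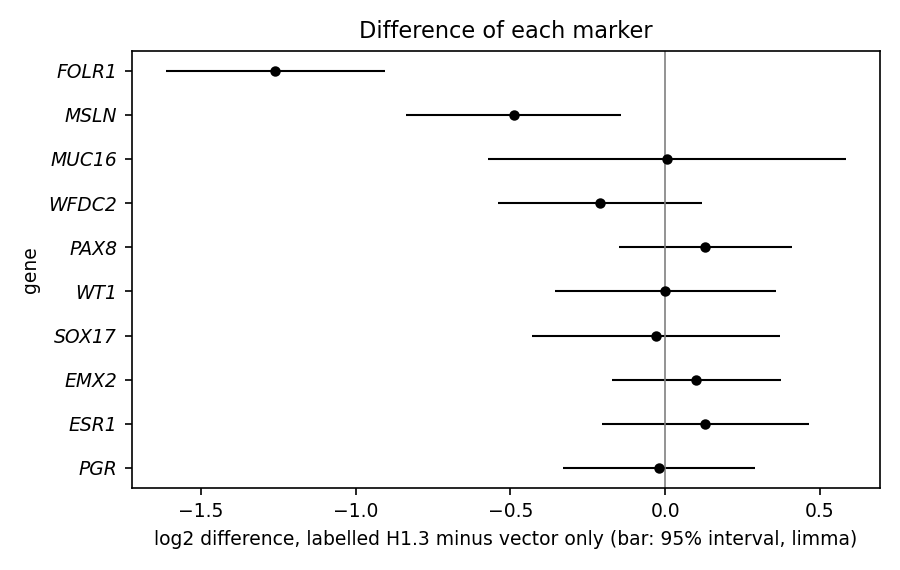
Log2 difference of each marker, labelled H1.3 minus vector only, with its 95% interval from limma's moderated fit (2 arrays a group, no adjustment for the number of genes). The interval of FOLR1 (-1.61 to -0.91) and that of MSLN (-0.84 to -0.14) lie below 0, and those of the other 8 include it.

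The 4 lineage transcription factors were read well above the dim reference on every array, and none passed the test. PAX8, a paired-box factor of thyroid, kidney and the Müllerian tract, had the highest rank, at or above the 97.6th percentile of the named clusters on every array, with 11.20 and 11.12 on the arrays labelled H1.3 and 11.09 and 10.97 on the vector-only arrays. Both arrays labelled H1.3 were above both vector-only arrays, and the log2 difference of 0.13 ± 0.12 (SE) did not pass (limma adjusted p 0.760, 95% interval -0.15 to 0.41). WT1, the zinc finger factor of the gonadal ridge and mesothelium, measured 9.74 and 9.43 on the arrays labelled H1.3, against 9.70 and 9.47 on the vector-only arrays, and the means were equal (95% interval -0.36 to 0.36).

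SOX17, a high-mobility-group factor that acts with PAX8 in ovarian carcinoma cells, measured 9.49 and 9.06 on the arrays labelled H1.3 and 9.42 and 9.19 on the vector-only arrays. The groups overlapped, with a log2 difference of -0.03 ± 0.17 (SE) and a 95% interval of -0.43 to 0.37. EMX2, a homeobox factor needed for the urogenital tract in mice, measured 9.32 and 9.41 on the arrays labelled H1.3 and 9.30 and 9.23 on the vector-only arrays. The arrays labelled H1.3 were barely higher, by 0.10 ± 0.12 (SE), with an adjusted p of 0.818 and a 95% interval of -0.17 to 0.37. For none of the 4 factors did the interval reach a 2-fold change (1 on the log2 scale). These intervals are unadjusted and cover only the spread from array to array. Their neighbours in genome order had median differences of 0.10 for PAX8, 0.08 for WT1, -0.09 for SOX17 and -0.06 for EMX2.

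In the list of 30 transcription factors of Müllerian, kidney and gonadal lineages, 23 were measured, and 0 passed in either direction, with a median log2 difference of 0.005. The groups did not overlap for 10 of them with the arrays labelled H1.3 above and for 2 with them below, against 21.2% and 19.4% of all clusters. The members of smallest p were EYA1, a transcriptional coactivator phosphatase of the kidney lineage, at 0.45 with an adjusted p of 0.240 but under the dim reference on every array, and LHX1, a homeobox factor of the early duct, at 0.35 with an adjusted p of 0.391. Among relatives of the markers, PAX2 differed by -0.07, PAX5 by -0.11, SOX18 by -0.02 and SOX7 by -0.11, and none passed. PAX2 read 6.02 and 5.93 on the arrays labelled H1.3 and 6.10 and 5.99 on the vector-only arrays.

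ESR1, the nuclear estrogen receptor alpha, was dim on both of its clusters. The first measured 5.04 and 4.77 on the arrays labelled H1.3 and 4.68 and 4.87 on the vector-only arrays, and the groups overlapped, with a log2 difference of 0.13 ± 0.14 (SE) and an adjusted p of 0.804. The second measured 4.66 and 4.51 on the arrays labelled H1.3 and 4.30 and 4.37 on the vector-only arrays, and the arrays labelled H1.3 were higher by 0.25 ± 0.12 (SE), which did not pass (unadjusted limma p 0.0756). Of the olfactory receptor clusters on an array, between 83.3% and 88.6% read lower than the first cluster and between 70.8% and 78.6% lower than the second. Values this dim show no level of the transcript, and a difference between them need not be one of RNA.

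PGR, the progesterone receptor, whose gene is a standard target of estrogen receptor alpha, measured 4.30 and 4.21 on the arrays labelled H1.3, against 4.15 and 4.40 on the vector-only arrays. The vector-only values enclosed those of the arrays labelled H1.3, and the log2 difference was -0.02 ± 0.13 (SE, adjusted p 0.975). Around PGR, also on chromosome 11, most genes read lower in the arrays labelled H1.3: 19 of its 20 nearest measured neighbours were below 0, at a median log2 difference of -0.40. Of the 20 nearest with a mean level at or above the median, 20 were negative, with a median of -0.67 and a range from -1.01 to -0.26. Of these, 1 passed as lower, against 0.264% of all clusters. PGR, at its dim level, did not follow them, and whether it would at a measurable level was not tested. Some other neighbours of dim mean level also lay near 0, such as CNTN5 (0.04), ANGPTL5 (-0.005) and MMP7 (-0.05). Others did not, such as MMP27 (-0.24) and CFAP300 (-0.82).

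Of 26 measured genes among textbook targets and cofactors of the estrogen and progesterone receptors, 13 had a positive and 13 a negative difference, 0 passed, and the median was 0.03. Over all clusters, 0.264% fell, 0.24% rose and 45.9% had a negative difference. The smallest p belonged to STC2, a secreted glycoprotein gene, at -0.83 ± 0.15 (SE) with a limma adjusted p of 0.0821, and to NRIP1, a nuclear receptor corepressor gene, at 0.26 ± 0.12 with an adjusted p of 0.467. STC2 read 6.63 and 7.0 on the arrays labelled H1.3 and 7.69 and 7.60 on the vector-only arrays. ESR2, which encodes estrogen receptor beta, read 4.46 and 4.5 on the arrays labelled H1.3 and 4.56 and 4.55 on the vector-only arrays, all under the dim reference.

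Promoter sequences show where these marker genes begin and which common elements lie there. RefSeq promoters (GRCh38.p14, 250 bases before to 50 after a transcript start) matched 7 of the 10 markers, with 18 starts in all; FOLR1, MSLN and SOX17 are named only. The promoters of PAX8 (chr2:113278872-113279171, minus strand) and EMX2 (chr10:117542496-117542795, plus strand) are shown as those of lineage factors with high levels. That of WFDC2 (chr20:45469503-45469802, plus strand) is shown as the secreted marker, and 1 of the 3 starts of PGR (chr11:101129028-101129327, minus strand) as a receptor gene at dim signal. Capitals mark the estrogen response half-site GGTCA, the GC box GGGCGG and the CCAAT box, each also as its reverse complement.
PAX8: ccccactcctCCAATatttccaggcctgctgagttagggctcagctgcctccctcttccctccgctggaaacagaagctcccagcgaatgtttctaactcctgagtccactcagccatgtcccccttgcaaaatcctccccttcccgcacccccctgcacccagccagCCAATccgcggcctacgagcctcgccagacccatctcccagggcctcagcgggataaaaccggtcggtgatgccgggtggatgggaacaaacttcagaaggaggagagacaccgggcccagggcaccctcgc
EMX2: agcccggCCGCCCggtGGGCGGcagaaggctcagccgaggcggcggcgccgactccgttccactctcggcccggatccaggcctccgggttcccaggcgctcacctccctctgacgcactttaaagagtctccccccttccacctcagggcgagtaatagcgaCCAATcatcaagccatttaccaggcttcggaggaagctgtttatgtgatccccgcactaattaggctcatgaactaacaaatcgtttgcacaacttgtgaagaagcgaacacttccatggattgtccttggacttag
WFDC2: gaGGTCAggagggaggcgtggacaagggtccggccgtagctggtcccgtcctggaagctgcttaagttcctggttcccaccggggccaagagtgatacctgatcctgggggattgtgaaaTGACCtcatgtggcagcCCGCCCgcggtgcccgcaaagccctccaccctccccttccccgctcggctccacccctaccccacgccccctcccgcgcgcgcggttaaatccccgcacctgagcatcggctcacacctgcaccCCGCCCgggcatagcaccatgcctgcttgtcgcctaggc
PGR: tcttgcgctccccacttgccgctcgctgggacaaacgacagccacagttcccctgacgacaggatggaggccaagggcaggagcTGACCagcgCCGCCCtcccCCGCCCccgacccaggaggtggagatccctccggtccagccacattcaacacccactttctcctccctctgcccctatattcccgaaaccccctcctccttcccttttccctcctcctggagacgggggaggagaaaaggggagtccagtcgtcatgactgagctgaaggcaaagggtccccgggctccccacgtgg

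The PAX8 promoter held 2 CCAAT boxes, beginning 240 and 82 bases before the start, and EMX2 held 1, at 87 bases before it, with GC boxes 243 and 234 bases before it. WFDC2 held 2 half-sites, 248 and 130 bases before its start, with 1 GC box 113 bases before the start and another from base 12 after it. The PGR promoter shown held a half-site 166 bases before the start, followed by GC boxes at 157 and 147. Another start of PGR (chr11:101129764-101130063) held 0 half-sites, 1 GC box and 2 CCAAT boxes. It lies upstream of the one shown on the minus strand, so the sites marked in the stretch shown lie downstream of it. The TATA box TATAAA, searched on both strands as well, was in 0 of the 18 promoters. The half-site was in 6, the GC box in 9 and the CCAAT box in 8, and 0 of these matches overlapped within a promoter. The PGR promoters at chr11:101129028-101129327 and chr11:101129014-101129313 overlap, so the sites they share were counted in both. Of all 35116 promoters of the same length, 11.5% held the TATA box, 37.4% the half-site, 45% the GC box and 34.6% the CCAAT box. The GC content was 62% for PAX8, 58% for EMX2, 67.3% for WFDC2 and 64.3% for PGR, beside a median of 58.7% over all promoters. These matches describe letters and do not show binding.

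The spread within the groups differed among the markers. Replicate 2 exceeded replicate 1 for MUC16 by 0.56 in the arrays labelled H1.3 and by 0.61 in the vector-only arrays. For SOX17 replicate 2 was the lower one, with differences of -0.43 in the arrays labelled H1.3 and -0.23 in the vector-only arrays, and for WT1 they were -0.31 in the arrays labelled H1.3 and -0.23 in the vector-only arrays. Of the 10 markers, 6 had a replicate difference of the same sign in both groups, against 46.7% of all clusters. For MUC16, SOX17 and WT1, the difference between replicates was thus larger than that between the groups. The same was true of ESR1 and PGR, and of WFDC2 in the arrays labelled H1.3 only. Of the 10 markers, 5 had groups that did not overlap, 3 with the arrays labelled H1.3 below and 2 with them above, against 19.4% and 21.2% of all clusters.

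**Figure D4:**
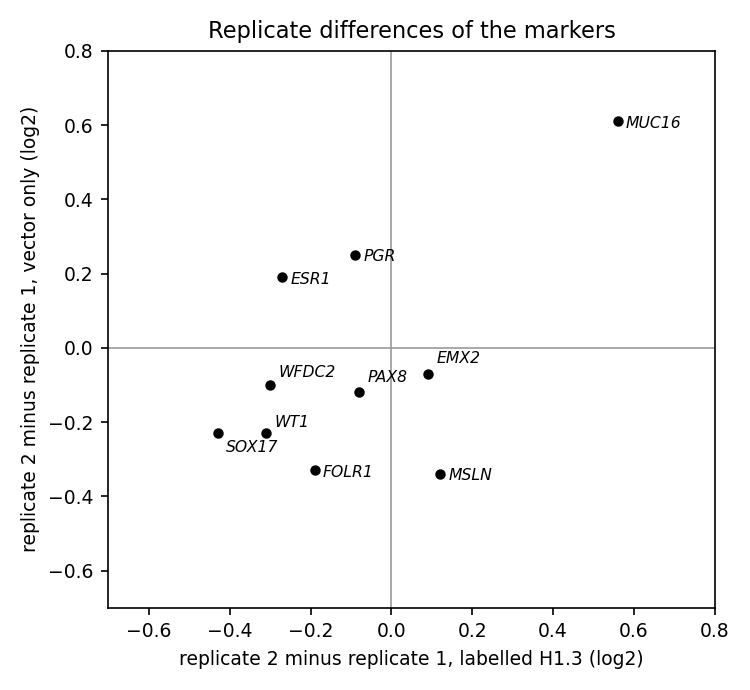
Replicate 2 minus replicate 1 on the log2 scale for each marker, in the arrays labelled H1.3 (horizontal axis) and in the vector-only arrays (vertical axis). MUC16 stands at 0.56 and 0.61, and SOX17, WT1, WFDC2, FOLR1 and PAX8 lie below 0 on both axes.

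Folate uptake and one-carbon metabolism, in which FOLR1 takes part, was described through a list of 30 genes, of which 26 were measured. In it, 2 fell and 0 rose, against 0.264% and 0.24% of all clusters, and 24 did not pass. Of the differences 19 were negative and 6 positive, where 45.9% of all clusters were negative, and the median was -0.12, beside 0.015 over all clusters. The groups did not overlap for 15 of the 26 with the arrays labelled H1.3 below and for 2 with them above, against 19.4% and 21.2% of all clusters. FOLR1 is itself in the list, so its fall enters these counts and the median. The list was also chosen with earlier results of these data known, so the counts are no separate support for that fall. The other gene that fell was LRP2, which encodes megalin, an endocytic receptor that takes up folate-binding protein in the kidney. LRP2 read 7.86 and 8.21 on the arrays labelled H1.3 and 9.25 and 9.53 on the vector-only arrays, a log2 difference of -1.36 ± 0.16 (SE) (limma adjusted p 0.0297.) The call was lost in 4 refits besides those that left out an array. Among genes picked out after their values were seen, ALDH1L2, a mitochondrial folate dehydrogenase, read 5.15 and 6.16 on the arrays labelled H1.3 and 6.96 and 7.23 on the vector-only arrays, and differed by -1.44 (adjusted p 0.108). The value of 5.15 lay under the dim reference of its array (5.41), and the arrays labelled H1.3 differed by 1.01 for ALDH1L2. GLDC, the glycine decarboxylase of mitochondria, differed by -1.04 (adjusted p 0.0543), and the carrier SLC19A1, which brings reduced folates into most cells, by -0.06 (adjusted p 0.919). SLC46A1, the proton-coupled folate transporter, also picked out afterwards, differed by -0.22 (adjusted p 0.537).

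Of 33 measured genes among 35 other surface and secreted markers of ovarian carcinoma, 0 passed, 22 had a negative and 11 a positive difference, and the median was -0.15. Over all clusters, 0.264% fell, 0.24% rose and 45.9% had a negative difference. KLK6, a kallikrein-related peptidase, read 6.92 and 7.65 on the arrays labelled H1.3 and 8.62 and 8.93 on the vector-only arrays, a log2 difference of -1.49 (limma adjusted p 0.0619.) LCN2, the iron-siderophore carrier lipocalin 2, read 10.37 and 9.76 on the arrays labelled H1.3 and 8.58 and 9.11 on the vector-only arrays, a difference of 1.22 (adjusted p 0.0951.) Of 15 measured genes of simple epithelium, 0 passed and 11 were lower in the arrays labelled H1.3, beside the same shares over all clusters. The median was -0.12. EPCAM, an epithelial adhesion molecule, differed by -0.57 (adjusted p 0.111) and RAB25, a trafficking GTPase, by -0.48 (adjusted p 0.381).

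**Figure D5:**
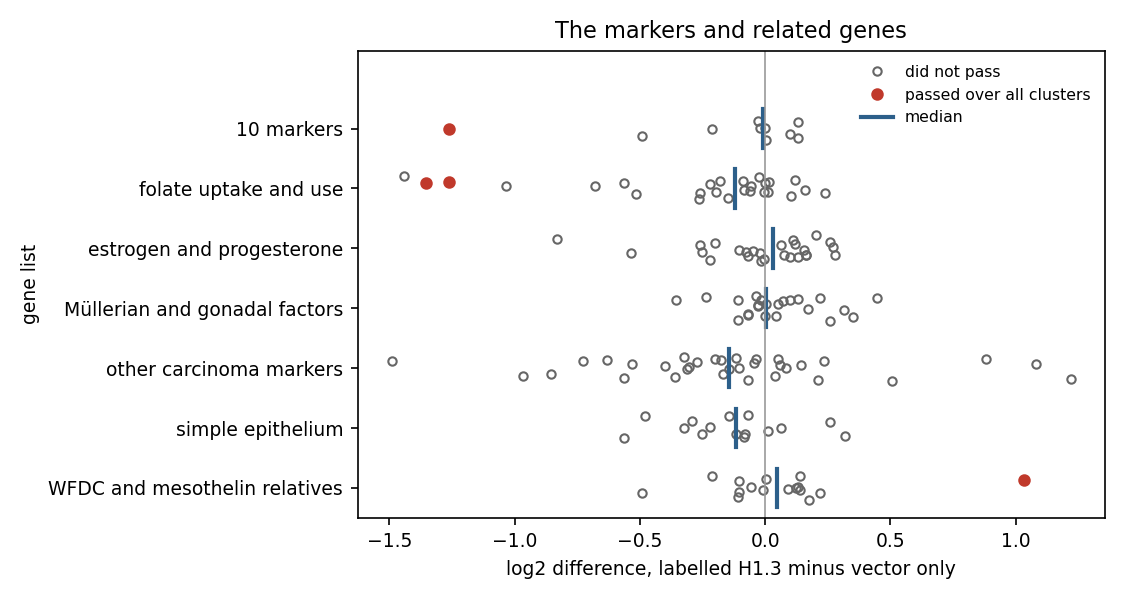
Log2 difference, labelled H1.3 minus vector only, of the measured genes of the markers' list and of 6 related lists, with red points for genes that passed over all clusters, open points for those that did not, and a bar at each median. FOLR1 and LRP2 are the red points at the left and PI3 that at the right; a gene in several lists is drawn in each.

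Markers of other cell types were measured beside these results. Of 4 measured defining markers of mesothelium, a tissue that also makes MSLN and WT1, CALB2 and LRRN4 exceeded the dim reference on all arrays and ITLN1 and PRG4 on none. Over 14 mesothelial genes 0 passed, the median difference was -0.04 (but 0.012 to 0.078 when each array was left out), and the mean level was 6.14 and 6.11 on the arrays labelled H1.3 and 6.03 and 6.02 on the vector-only arrays. For 14 fibroblast genes it was 5.15 and 5.02 on the arrays labelled H1.3 and 5.02 and 5.12 on the vector-only arrays, where DCN, LUM and PDGFRA lay under the dim reference on every array and the other 2 defining markers, COL1A1 and COL1A2, above it on every array. For 16 leukocyte genes it was 5.22 and 5.08 on the arrays labelled H1.3 and 5.09 and 5.12 on the vector-only arrays, where PTPRC and CD3E lay under the dim reference on every array and CD14 and TYROBP above it on every array. For 11 endothelial genes it was 5.31 and 5.28 on the arrays labelled H1.3 and 5.31 and 5.33 on the vector-only arrays, where PECAM1 and CDH5 lay under the dim reference on every array, KDR above it on every array and VWF above it on 2. The part of such cells in the level of any marker was not tested.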

How the data were processed

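Expression in OVCAR-3 cells was measured on 4 arrays, 2 per group as the labels give them. The authors deposited log2 values, 1 per transcript cluster and array; per the submitters' processing notes the tools were RMA and Affymetrix Expression Console, at versions not given in the sources used here. The series text names an exon array, whereas the platform annotation given here is that of a gene array. Depth has no meaning for arrays; their number limits the precision.

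Symbols of single-gene clusters were updated by gene identifier to RefSeq (GRCh38.p14; 19429 of 19460 found). The 21214 named clusters entered limma 3.58.1 under R 4.3.3 (lmFit, eBayes, two-sided, no covariate), as labelled H1.3 minus vector only, with Benjamini-Hochberg adjustment over all of them and a threshold of 0.05; the fit had 2 residual and 5.16 prior degrees of freedom. Intervals are unadjusted. The fit was run on simulated data with independent normal noise and variances drawn from its own prior. Such data cannot show how the fit does where real arrays share effects. Markers, lists (15, with 258 of 292 memberships measured) and tests were chosen with earlier results of these data known. Named besides the markers are list members that passed, or else the 2 of smallest p, FOLR1's 5 neighbours on each side, its 3 nearest profiles, and relatives by family; 4 folate genes were added after their values were seen. Of several clusters of a gene, that of highest mean was used. Replicate differences of the 2 groups correlated at 0.06 over the named clusters, so replicate numbers were not taken to pair arrays. Alternatives changed the moderation, scaling, clusters tested and threshold, added the replicate number or left out each array; 1 scaling was added after seeing the data. Figures used matplotlib 3.10.9.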

Additional observations from a re-analysis of the deposited data

How the results depend on the processing

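FOLR1 kept its sign in all 12 refits and its call with a robust intensity trend, both scalings that moved values and single-symbol clusters. It lost the call without moderation (-1.26, adjusted p 0.621), with all transcript clusters (adjusted p 0.177) and with the replicate block (-1.26, adjusted p 0.137), was not tested without clusters below the median level, and ran from -1.43 to -1.09 in leave-one-out fits, where the single array left in a group is taken to vary as the other group does. The count of markers called lower, 1, was 0 in these settings, and that called higher stayed at 0 in all settings. Differences near 0 changed sign: MUC16 was -0.005 with arrays at one median over all clusters, an alternative chosen after seeing the data, and ran from -0.30 to 0.31 in leave-one-out fits, SOX17 from -0.25 to 0.19, ESR1 from -0.005 to 0.27 and PGR from -0.15 to 0.11; ERG, an endothelial gene, from -0.43 to 0.055. Of all clusters, 51 were higher and 56 lower, against 107 and 138 with a robust trend, 6 and 3 without moderation, 29 higher on quantile-normalized values, 19 and 31 for arrays at one median over all clusters, 6 and 19 for clusters at or above the median level, 1 and 3 when unnamed clusters were tested too, 0 and 0 with the replicate block (limma), 135 and 176 at the looser adjusted p of 0.10, and 282 and 401 for at least 1.5-fold changes with an unadjusted p under 0.05; leave-one-out fits gave 0 to 0 for both. Shifting arrays to one median of the named clusters changed nothing, as their medians were equal. With a robust trend, EPCAM (adjusted p 0.0344), C3 (0.0125), GPX3 (0.0440) and STC2 (0.0433) passed as well. The cause of these shifts was not tested.

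List medians moved by more than the spread between replicates without clusters below the median level, which leaves fewer genes: to -0.20 for folate, -0.13 for secretory cells, 0.55 for mesothelium, -0.15 for fibroblasts, 0.50 for other carcinoma types and -0.16 for WFDC and mesothelin relatives. The value for other carcinoma types is then that of TSHR alone. That for fibroblasts rests on COL1A1 and FBLN1 only, and that for mesothelium on C3, TM4SF1 and SULF1 only. For WFDC and mesothelin relatives, only WFDC2, SLPI, PI3 and MSLN remain. A second quantile normalization gave -0.11 for other surface markers and -0.052 for mesothelium. Leave-one-out medians ran from -0.11 to 0.04 for the markers, -0.14 to -0.088 for folate, -0.03 to 0.035 for estrogen and progesterone, -0.015 to 0.085 for lineage factors, -0.18 to -0.075 for other surface markers, -0.18 to -0.04 for simple epithelium, -0.06 to 0.02 for secretory cells, -0.08 to 0.092 for ciliated cells, 0.012 to 0.078 for mesothelium, 0.02 to 0.14 for granulosa cells, -0.065 to 0.06 for endothelium, -0.02 to 0.16 for leukocytes, 0.01 to 0.20 for other carcinoma types and -0.022 to 0.11 for WFDC and mesothelin relatives.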

Other observations

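Secretory and ciliated cells of the fallopian tube were described through lists of their own. Of 12 secretory genes, 4 of which are among the 10 markers, 0 passed and the median log2 difference was -0.03. GPX3, a secreted glutathione peroxidase, read 7.89 and 7.85 on the arrays labelled H1.3 and 8.48 and 8.48 on the vector-only arrays, a difference of -0.61 (limma adjusted p 0.0855.) Of 14 measured ciliated-cell genes, 0 passed and the median was -0.01. The smallest p there belonged to TPPP3, a tubulin-binding protein gene, at -0.39 with an adjusted p of 0.312, and to TEKT2, an axonemal protein gene, at -0.32 with an adjusted p of 0.370.

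Among mesothelial genes, complement C3, which epithelial and liver cells make as well, read 12.05 and 11.97 on the arrays labelled H1.3 and 11.28 and 11.34 on the vector-only arrays, a log2 difference of 0.70 (limma adjusted p 0.0679.) SULF1, an extracellular heparan sulfatase gene, differed by 0.55 with an adjusted p of 0.146. Of 15 granulosa and sex cord genes, 0 passed and the median was 0.10; INHBB, an activin subunit gene, and NR5A1, a steroidogenic nuclear receptor gene, had differences of 0.25 and 0.32 with adjusted p of 0.486 and 0.466. Of 13 measured markers of other carcinoma types, 0 passed and the median was 0.11, with TSHR, the thyrotropin receptor gene, at 0.50 (adjusted p 0.360) and AFP, the alpha-fetoprotein gene, at 0.21 (adjusted p 0.607), under the dim reference on every array. In the lists of stromal and blood cells the smallest p belonged to FBLN1 (-0.40) and PDGFRB (0.23) for fibroblasts, KDR (-0.38) and ERG (-0.19) for endothelium and PTPRC (0.23) and LYZ (0.17) for leukocytes, with adjusted p from 0.222 to 0.763. PTPRC and LYZ lay under the dim reference on every array.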
